A study of Homo sapiens with 2 samples.

Results

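RAB17, RAB25, RAB11FIP1, MYO5B, MAL2, AP1M2, PROM1, PROM2 and RGL3 are 9 genes grouped here as apical trafficking genes of polarised epithelial cells. The name fits AP1M2 and RGL3 less closely, as set out below. All 9 were among the 22439 genes named on the arrays. All were also among the 16001 genes with a probe well above background in both substates of H9, a human embryonic stem cell line. Membership was set by gene symbol, through the RefSeq transcript of each probe. RAB17, PROM2 and RGL3 were chosen by the differences of these arrays, every one of their measured probes being lower in substate 2, and the list was drawn up with results from these arrays known, so the values below describe the genes and no test was made of them.

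The study kept H9 cells in TeSR-E8 medium on vitronectin and moved cells at passage 35 to Matrigel, on which both substates were described. Total RNA of each substate was hybridised to 1 single-colour Agilent array. Which matrix the cells of each array grew on is not established here. The substate 1 cells, which form compact colonies with a strong R-10G epitope (a keratan sulphate glycan) and almost no vimentin, were at passage 35. The substate 2 cells, which form colonies with wide intercellular spaces, a weaker R-10G epitope and strong vimentin, were at passage 50. Passage, and matrix if it differed, therefore cannot be told apart from substate, and with 1 array per substate no difference has a replicate check. The sources used here do not say how the cells of each substate were separated before RNA extraction. In such bulk RNA, fewer cells that express a gene and less RNA per cell cannot be told apart.

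In a polarised epithelium, proteins taken up from the surface are returned to the apical or the basolateral membrane through recycling endosomes. RAB GTPases mark the carriers, myosin V motors move them along actin, adaptor complexes select their cargo, and the exocyst, which is controlled by Ral GTPases, tethers them at the plasma membrane. Human embryonic stem cells grow as an epithelium-like sheet with apical and basal surfaces and express many genes of simple epithelia. Of the 9 genes, AP1M2 is best known for basolateral rather than apical sorting, and RGL3 is known as an activator of Ral rather than as a trafficking protein.

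All 9 gene differences were below the median gene. At the 2-fold limit 3 genes were lower in substate 2, against 1.07% of the measured genes, and 0 were higher, against 0.931%. The 3 are RAB17, RGL3 and PROM2, the genes chosen for being lower, so nothing is read from that count. RAB17 was the lowest of them at 2.86-fold lower, followed by RGL3 at 2.30-fold and PROM2 at 2.18-fold. AP1M2 at 1.97-fold and MAL2 at 1.80-fold were lower by less than the 2-fold limit, and RAB25 was 1.36-fold lower. PROM1, RAB11FIP1 and MYO5B had differences between -0.14 and -0.03 on the log2 scale, close to equal signal. That of MYO5B is a mean over dim probes with opposite signs.

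The RefSeq promoter table (GRCh38.p14) held 10 windows for 7 of the 9 genes, each running from 250 bases before to 50 bases after a gene start. MAL2 and RAB11FIP1 had no entry. The windows of RAB17, RGL3, PROM2 and AP1M2, the 4 genes with the lowest differences, are shown with that of MYO5B, whose mean difference was closest to 0. Capitals mark CAGGTG on either strand, which reads CACCTG on the other strand and is the E-box core bound by ZEB and SNAI factors. The RAB17 window lies at chr2:237590685-237590984 (minus strand), the RGL3 window at chr19:11419265-11419564 (minus), the PROM2 window at chr2:95274199-95274498 (plus), the AP1M2 window at chr19:10587263-10587562 (minus) and the MYO5B window at chr18:50195098-50195397 (minus), and each is written 5′ to 3′ on the strand of its gene.
RAB17: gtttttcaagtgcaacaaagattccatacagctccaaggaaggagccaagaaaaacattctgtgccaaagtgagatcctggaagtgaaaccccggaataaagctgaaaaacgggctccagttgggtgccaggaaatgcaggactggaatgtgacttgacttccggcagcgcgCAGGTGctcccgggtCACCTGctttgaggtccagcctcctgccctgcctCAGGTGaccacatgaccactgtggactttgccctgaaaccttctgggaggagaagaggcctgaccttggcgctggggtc
RGL3: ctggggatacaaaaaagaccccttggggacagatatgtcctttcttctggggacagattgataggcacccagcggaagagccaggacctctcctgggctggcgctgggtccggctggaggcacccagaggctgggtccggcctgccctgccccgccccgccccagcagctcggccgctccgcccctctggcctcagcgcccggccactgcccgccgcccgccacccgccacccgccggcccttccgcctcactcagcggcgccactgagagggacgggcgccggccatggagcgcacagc
PROM2: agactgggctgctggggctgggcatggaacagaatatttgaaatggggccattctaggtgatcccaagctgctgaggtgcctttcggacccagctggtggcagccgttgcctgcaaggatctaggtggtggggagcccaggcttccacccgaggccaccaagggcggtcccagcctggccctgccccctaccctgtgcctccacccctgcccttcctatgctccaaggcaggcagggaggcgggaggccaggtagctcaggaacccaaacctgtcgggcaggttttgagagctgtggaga
AP1M2: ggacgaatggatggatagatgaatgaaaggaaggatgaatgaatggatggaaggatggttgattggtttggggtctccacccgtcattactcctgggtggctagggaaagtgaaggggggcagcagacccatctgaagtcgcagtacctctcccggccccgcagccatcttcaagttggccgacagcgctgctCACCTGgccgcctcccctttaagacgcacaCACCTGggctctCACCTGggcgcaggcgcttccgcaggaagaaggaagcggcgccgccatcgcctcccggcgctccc
MYO5B: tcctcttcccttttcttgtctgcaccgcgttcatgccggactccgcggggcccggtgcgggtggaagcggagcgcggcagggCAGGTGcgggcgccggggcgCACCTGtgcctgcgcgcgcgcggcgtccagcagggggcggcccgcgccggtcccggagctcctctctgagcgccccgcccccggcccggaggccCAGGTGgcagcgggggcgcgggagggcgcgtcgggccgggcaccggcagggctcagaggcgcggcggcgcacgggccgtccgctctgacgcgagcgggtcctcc

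The E-box core was present 3 times in the RAB17 window, 3 times in the AP1M2 window and 3 times in the MYO5B window, whereas the RGL3 and PROM2 windows held 0. In the RAB17 window the matches began at bases 173, 188 and 222, counted from the 5′ end, and in the AP1M2 window at bases 194, 224 and 236. The motif was present in some of the genes that were lower in substate 2 and not found in others. It was also present in MYO5B, whose mean difference was near 0 but whose dim probes gave opposite signs (0.28 and -0.34). Whether the motif bears on these differences was not tested. The RAB25 window (chr1:156060910-156061209, plus strand) held 2 matches, and 3 of the 4 PROM1 windows held at least 1. Counted by gene, 5 of the 7 genes and 9 of 16 paralogues with a window held the motif in at least 1 window. The share by gene over all genes was not computed, and a gene with several windows has more chances, so nothing is read from these counts. Counted by window, it was in 7 of 10 windows of these genes, 4 of the 10 being PROM1 windows, and in 10 of 23 windows of the paralogues. It was in 20.6% of all 35116 promoter windows of the same length and in 19.6% of the 17710 windows of measured genes. The grainyhead motif AACCGGTT was in 0 of the 10 windows and in 0.134% of all windows. Its looser form AACNGGTT, which includes every AACCGGTT, was in 0 of the 10 and in 1.73% of all. These matches are descriptions of the letters and show no binding.

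RAB17 is a small GTPase of epithelial cells that acts in recycling and transcytosis through apical endosomes. Its first probe had a processed signal of 871.7 in substate 1 and 270.6 in substate 2, and its second probe read 11545 and 3497. On the normalised scale, which is log2 of the signal relative to the 75th percentile of the same array, the first probe went from 1.47 to -0.03 and the second from 5.20 to 3.67. Both probes were therefore lower in substate 2 by close to the same amount, 2.83-fold and 2.90-fold. The log2 differences of -1.50 and -1.54 were 7.32 and 7.52 times the error that the scanner software gives for a difference of these spots, which covers the measurement of 1 array per substate and no biological spread. The gene difference of -1.52 was number 27 from the lowest among the 16001 measured genes. Among the 4236 genes measured by at least 2 probes it was number 1. RAB17 was chosen for being lower, so nothing is read from these ranks.

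RAB25 is the epithelial member of the RAB11 subfamily, which governs the apical recycling endosome. Its probe read 1434 in substate 1 and 927.5 in substate 2, or 2.19 and 1.75 on the normalised log2 scale. The difference of -0.44 was 2.16 times its measurement error and placed the gene within the lowest 8.52% of measured genes. It shrank to -0.16 under the normexp alternative, which replaced the processed signal with the median spot brightness, corrected its background by normexp and added an offset of 50. RAB11FIP1 encodes an effector that binds RAB11 and RAB25. Its probes read 617.3 and 224.2 in substate 1 and 491.5 and 206.0 in substate 2. The differences of -0.14 and 0.07 lay on either side of 0, and both were smaller than their measurement error.

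MYO5B is the myosin V motor that carries RAB11 vesicles along actin. Its probes were dim, with 23.2 and 68.3 in substate 1 and 24.7 and 47.5 in substate 2, where the lowest signals well above background were 14.5 and 15.0. The first probe differed by 0.28 and the second by -0.34 on the log2 scale, so they gave opposite signs and a mean of -0.03. The gap of 0.61 between them compares with a median gap of 0.15 over all genes with 2 measured probes.

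MAL2 is a membrane proteolipid needed for transcytosis to the apical surface. The first of its probes read 1665 in substate 1 and 803.7 in substate 2, a normalised 2.41 and 1.55. The second read 6395 and 3136, a normalised 4.35 and 3.51. Both were lower in substate 2, by 1.82-fold and 1.79-fold. The gene difference of -0.85 was number 25 from the lowest among the genes with at least 2 probes. AP1M2 encodes the epithelial mu subunit of the clathrin adaptor AP-1. Its only probe read 1876 in substate 1 and 834.4 in substate 2, or 2.58 and 1.60 after normalisation. The difference of -0.98 was 4.80 times its measurement error and fell just short of the 2-fold limit, which it passed under quantile normalisation (-1.05) and loess centring (-1.06).

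PROM1 and PROM2 are the prominins, cholesterol-binding glycoproteins of microvilli and other membrane protrusions. PROM2 read 106.8 and 188.4 with its probes in substate 1, and 41.5 and 78.5 in substate 2. The normalised values went from -1.55 to -2.73 and from -0.74 to -1.81, so that both probes were lower, by 2.26-fold and 2.11-fold, the latter being the value closest to the limit among the probes that passed it. PROM1, by contrast, read 905.0 and 722.5, a normalised 1.53 and 1.39, and its difference of -0.14 was smaller than its measurement error of 0.20. The PROM1 difference minus the PROM2 difference was 0.99 on the log2 scale, and it narrowed to 0.48 under the normexp alternative, with its other signal column and offset, where PROM2 stood at -0.64 and no longer passed the limit.

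RGL3 belongs to the RalGDS family of exchange factors, which load Ral GTPases with GTP. The first of its probes read 1187 in substate 1 and 442.4 in substate 2, a normalised 1.92 and 0.68. The second read 301.3 and 117.7, a normalised -0.06 and -1.23. Both were lower in substate 2, by 2.35-fold and 2.25-fold, and the gene difference was -1.20. Under normexp it was -0.98, just inside the 2-fold limit.

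**Figure D1:**
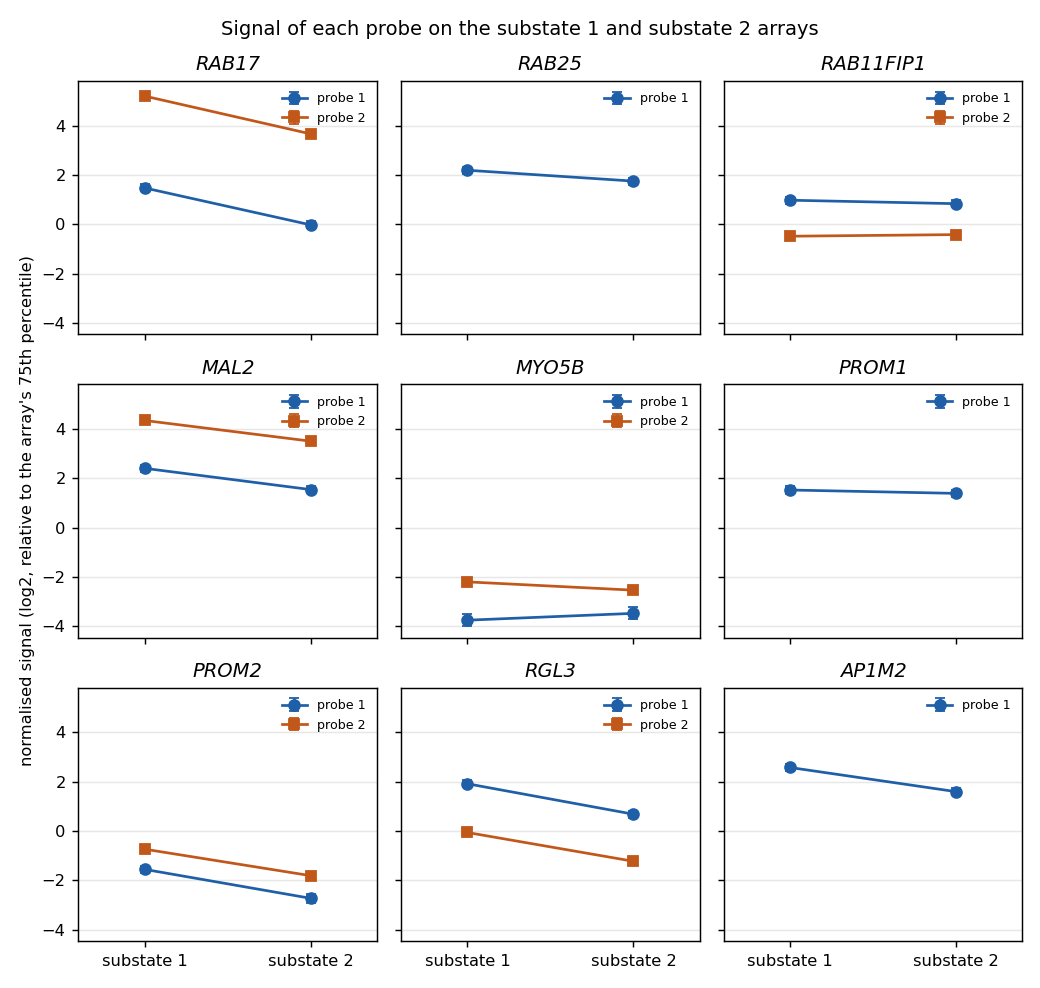
Normalised signal (y axis, log2 relative to the 75th percentile of the array) of each probe in substate 1 and substate 2 (x axis), 1 array each, with 1 panel per gene and error bars giving the scanner software's measurement error of that spot. Both probes of RAB17, MAL2, PROM2 and RGL3 are lower in substate 2 by nearly parallel amounts, whereas the MYO5B probes cross in direction. RAB17, PROM2 and RGL3 were chosen because all their measured probes were lower, so that shared direction is no finding for them.

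All 15 probes of the 9 genes were well above background on both arrays, and 0 of their spots were saturated or marked as outliers. The difference was below 0 for 13 probes and above 0 for 2. It was larger than its measurement error for 11 probes and larger than 2 such errors for 10. The shares of all probes passing these rules were not computed, and the probes of RAB17, PROM2 and RGL3, chosen for being lower, are included. Nothing is therefore read from these counts. The 2-fold limit in the lower direction was passed by 6 probes, namely both of RAB17, PROM2 and RGL3, and by 1.67% of the 33166 probes that stood well above background in either substate. In the higher direction it was passed by 0 of the 15, against 1.55% of all. These 6 probes are those of the genes chosen for being lower, so nothing is read from the count. The 9 probes of the other 6 genes all stayed inside the limit.

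The study ranked probes by a Z-score, the difference minus the mean of all probes divided by their SD, and took 2 as the limit on both sides. A Z-score of -2 or less was reached by 3 of the 15 probes, both of RAB17 (-2.48 and -2.54) and the first of RGL3 (-2.07), and by 3.3% of all 58201 probes. Of the probes well above background on both arrays, 0.622% reached it. A Z-score of 2 or more was reached by 0 of the 15 and by 3.03% of all probes. The first PROM2 probe (-1.97) and the second RGL3 probe (-1.96) lay just outside. With the mean and SD taken from probes well above background on both arrays, the limit moved closer to 0, and 9 of the 15 probes and 3.04% of those probes were past it. The 3 probes are of genes chosen for being lower, and the 9 include all probes of RAB17, PROM2 and RGL3. Nothing is therefore read from these counts.

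All 9 gene differences were below 0, where 40.2% of measured genes lay, and below the median gene at 0.08, where by definition 50% lay. PROM1, RAB11FIP1 and MYO5B differed from the median gene by -0.22, -0.12 and -0.11, and the sign of RAB11FIP1 and MYO5B against 0 changed with the scaling. Of the 6 genes with 2 probes, 4 had both probes lower, as did 26.4% of the genes with at least 2 measured probes. In RAB17, PROM2 and RGL3 both probes were at least 2-fold lower, which was seen in 0.189% of such genes, or 8 of 4236. These genes were chosen for being lower and are among the 4 with both probes lower, so nothing is read from either share. The median of the 9 genes was -0.85, or 1.80-fold lower. It includes RAB17, PROM2 and RGL3 and so depends on how they were chosen.

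**Figure D2:**
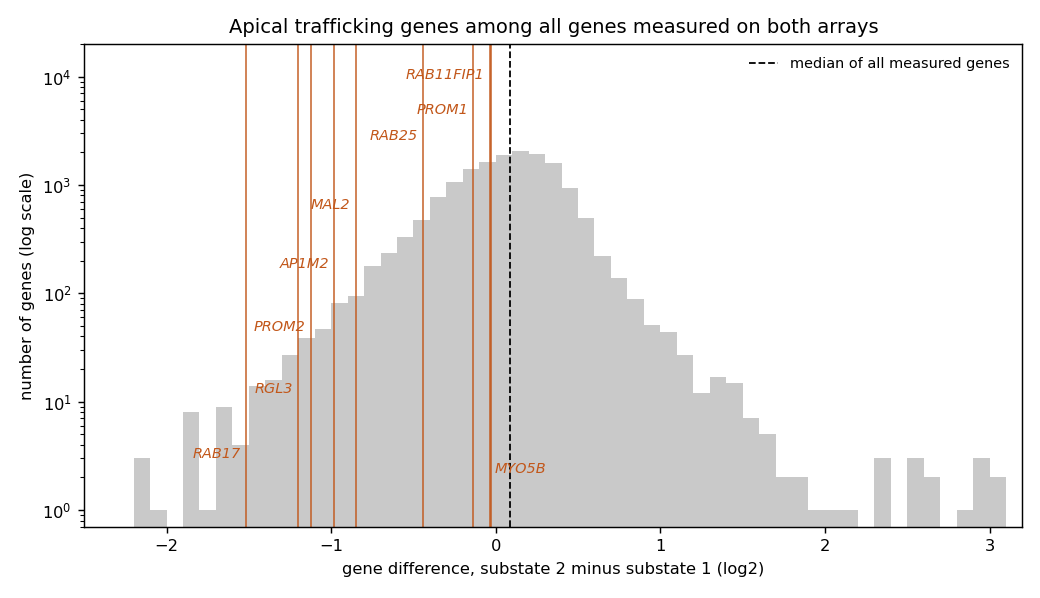
Number of genes (y axis, log scale) by gene difference, substate 2 minus substate 1 (x axis, log2, in bins of 0.1), for the 16001 genes measured on both arrays, with a vertical line for each of the 9 apical trafficking genes and a dashed line at the median gene. RAB17 lies in the lower tail at -1.52, RGL3, PROM2, AP1M2 and MAL2 lie between -1.20 and -0.85, and PROM1, RAB11FIP1 and MYO5B lie inside the bulk.

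Most of the 9 genes have relatives that are used in many cell types. RAB11A and RAB11B, which share the recycling endosome with RAB25, were higher by 0.35 and 0.63 on the log2 scale, so RAB25 was -0.93 from their mean. RAB5A, RAB5B and RAB5C, GTPases of the early endosome taken here as relatives of RAB17, were higher by 0.09, 0.32 and 0.55. RAB17 was -1.84 from their mean. AP1M1, the mu subunit of the ubiquitous AP-1 complex, was 1.79-fold higher (0.84) in substate 2, opposite in direction to AP1M2, and the gap between both subunits was -1.82. RGL3 likewise differed in direction from RALGDS (0.17), RGL1 (0.89, 1.85-fold higher) and RGL2 (0.11), with a gap of -1.59 to their mean.

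In the remaining families the measured relatives lay closer. MALL and PLLP, relatives of MAL2, were at -0.28 and -0.33, and MAL2 was -0.54 from their mean. MAL itself was read by 1 dim probe, with signals of 14.4 in substate 1 and 22.5 in substate 2. This probe stood well above background only on the substate 2 array, where it was at least 1.77-fold higher. The lowest signals well above background were 14.5 and 15.0, so no direction is read from MAL. When dim probes were not filtered out, the gap of MAL2 to its relatives was -0.92. RAB11FIP2, RAB11FIP3 and RAB11FIP5 were at -0.07, 0.03 and -0.25, and the gap of RAB11FIP1 to their mean was 0.06. RAB11FIP4 was not named on the array. MYO5A and MYO5C were at -0.16 and -0.17, and MYO5B was 0.14 above their mean. Hence the genes that stood furthest below their relatives were RAB17, AP1M2 and RGL3, whereas RAB11FIP1 and MYO5B stayed close to theirs. Of these, RAB17 and RGL3 were chosen for being lower. Each measured paralogue but MYO5C was read by 1 probe.

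**Figure D3:**
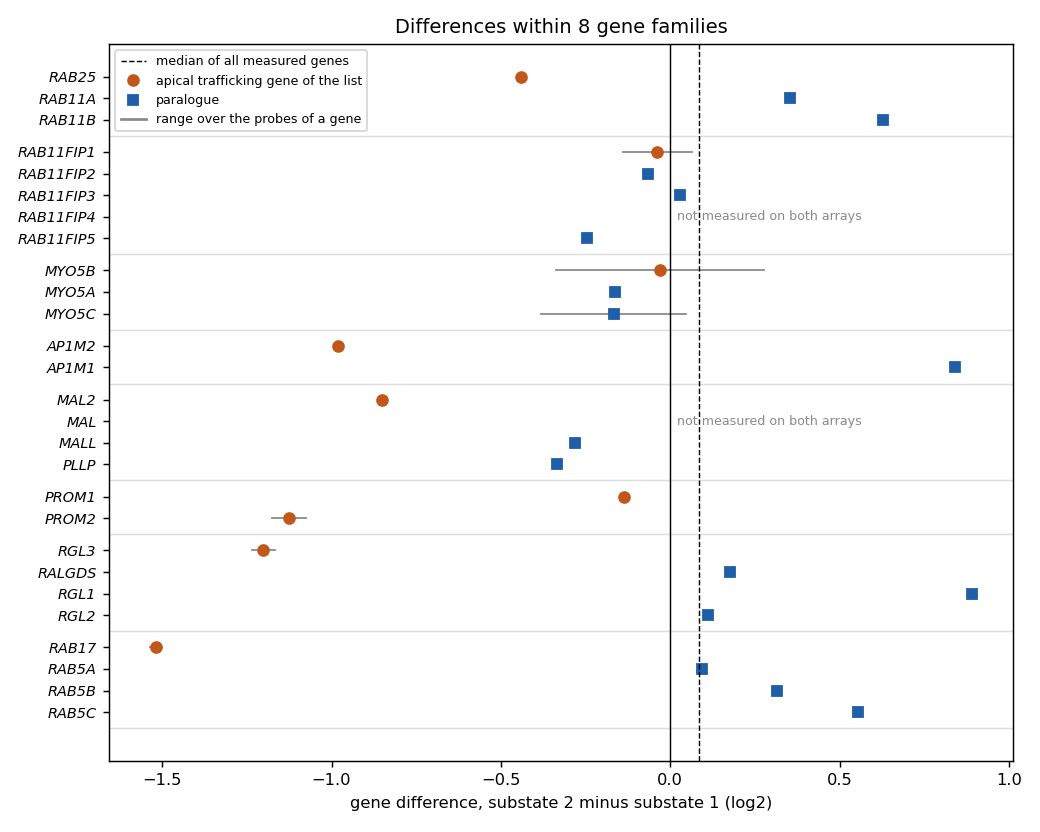
Gene difference, substate 2 minus substate 1 (x axis, log2), of the 9 apical trafficking genes (circles) and their paralogues (squares) in 8 families, with grey bars spanning the probes of a gene and a dashed line at the median gene. AP1M2 at -0.98 and AP1M1 at 0.84 lie on opposite sides of 0, as do RAB17 at -1.52 and RAB5C at 0.55, while the RAB11FIP and MYO5 genes cluster near 0.

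Among all 57 measured genes with a RAB number for a name, a set drawn up after the values were seen, RAB17 had the lowest difference and RAB25 the next lowest. RAB17 was chosen for being lower, so nothing is read from its rank. The other 55 ranged from -0.31 (RAB12) to 1.09 (RAB33A) with a median of 0.14. At the 2-fold limit 1 RAB gene, RAB17, was lower and 1, RAB33A, was higher, against 1.07% and 0.931% of all measured genes. Nothing is read from these counts.

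The wider machinery was represented by 98 genes in 8 lists, of which 90 were measured. Their median difference was 0.08, and 46 of 90, or 51.1%, were below the median gene. At the 2-fold limit 0 were lower and 1 was higher. That gene was SYTL2, a synaptotagmin-like RAB27 effector, whose only probe was 2.61-fold higher (1.39). The lowest were MARVELD3, a tight junction protein related to MAL2 by its MARVEL domain (-0.98, 2 probes), and VIL1 (-0.82) and ESPN (-0.77), which bundle actin in microvilli. After SYTL2 the highest were RGL1 and AP1M1.

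By list, the RAB11 recycling module had a median of 0.14 over 18 measured genes, and the exocyst had one of 0.05 over 9. The AP-1 and clathrin adaptor subunits had a median of 0.31, with 7 of 9 above the median gene. The MAL proteolipid family had the lowest median, -0.33, with 8 of 9 below the median gene, MAL2 itself not being counted. The Ral activators and Ral GTPases were at 0.11 (11 genes), the apical SNAREs and synaptotagmin-like proteins at 0.02 (12), the apical membrane scaffold and cargo at 0.00 (13) and the RAB17 regulators and effectors at 0.15 (9). Within the lists the genes lay on both sides of the median gene, with 7 of 18 below it in the RAB11 recycling module, 5 of 9 in the exocyst and 2 of 9 among the adaptor subunits. CLTC, the clathrin heavy chain, was read by 1 probe, which was dim, with a signal of 7.72 in substate 1 and at least 4.23-fold higher in substate 2, the array on which alone it stood well above background. CDHR5, RAB27B, SYTL3, SYTL4 and SYTL5 were not well above background on either array.

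**Figure D4:**
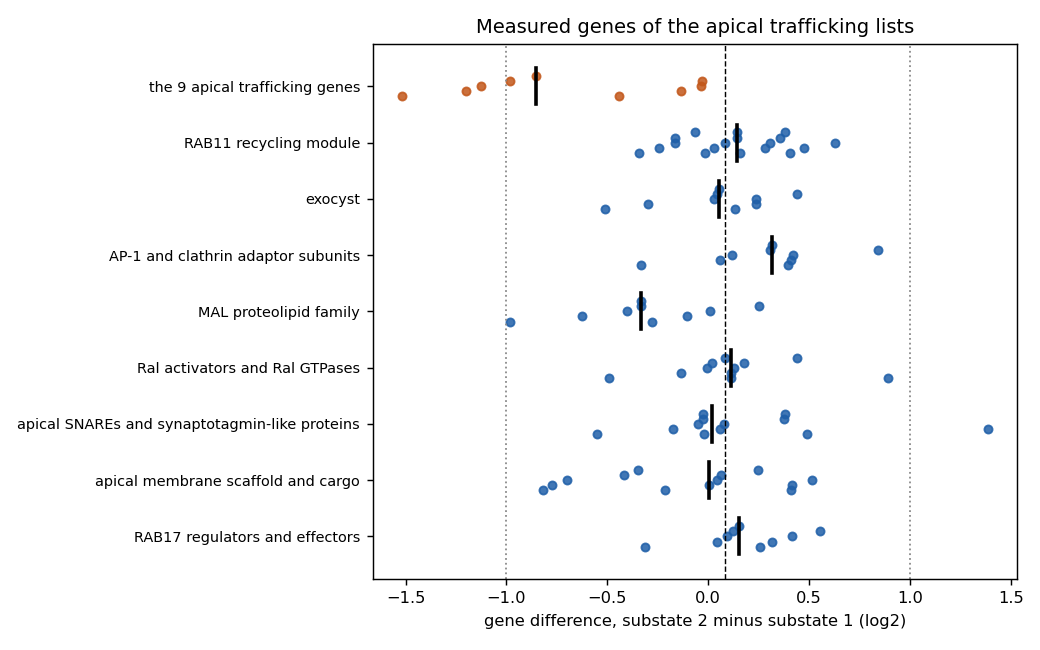
Gene difference, substate 2 minus substate 1 (x axis, log2), of each measured gene (points) of the 9 apical trafficking genes and of 8 lists of related genes (rows), with a black bar at the median of each list, dotted lines at 2-fold and a dashed line at the median gene. The 9 genes have a median of -0.85, which includes RAB17, RGL3 and PROM2, chosen for being lower, so it is not to be compared with the lists. The MAL proteolipid family has a median of -0.33, and the other 7 lists lie between 0.00 and 0.31.

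The genes with at least 2 probes whose differences were nearest to that of RAB17 were SPINK5, a protease inhibitor of stratified epithelia (-1.44), TTN, the giant protein of muscle sarcomeres (-1.32), POTED (-1.21), RGL3 (-1.20) and PROM2 (-1.13). Likeness here is the gap between gene differences over 2 arrays, hence over a single contrast. In gene order, the 3 nearest measured genes on each side of each of the 9 genes numbered 54. Of these, 0 were at least 2-fold lower, against 1.07% of all measured genes, a share so small that nothing is read from the count. The 54 genes had a median of 0.09 and ranged from -0.95 to 0.91. The lowest was MLPH, which encodes a RAB27 effector and lies near RAB17, whose 6 neighbours had a median of -0.13.

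Markers of cell types were read beside these values. The epithelial list was measured in full (17 of 17) and had a median of -0.80, with 15 genes below the median gene and 5 at least 2-fold lower. Its summed signal, in multiples of the 75th percentile, went from 574 in substate 1 to 453 in substate 2. E-cadherin (CDH1), the adhesion protein of epithelia, was at -1.47, EPCAM at -0.80 and CLDN3 at -0.64. The keratins of simple epithelia did not share this direction or size, with KRT8 at 0.33, KRT18 at 0.24 and KRT19 at -0.07, and CLDN6 was at -0.05. The mesenchymal transition list, 7 of 9 measured, summed to 27.0 and 83.7, with VIM at 2.53, ZEB1 at 2.54 and SNAI1 at 0.20. ZEB2 stood well above background in substate 2 alone, whereas FN1 did so in substate 1 alone and was at least 1.55-fold lower in substate 2. The FN1 probe was dim, with signals of 26.6 in substate 1 and 11.1 in substate 2. Vimentin staining defines the substates, so the VIM value is no finding. VIM is also part of the list sums, at normalised log2 values of 3.16 in substate 1 and 5.68 in substate 2, so the rise of the sum is no finding either. The part of these differences in the values of the 9 genes was not tested.

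Embryonic stem cell markers were present in both substates, with 8 of 10 measured, sums of 1239 and 1462, and POU5F1 at 0.27, NANOG at 0.42 and SOX2 at 0.26. Of the neural list 3 of 8 were measured (DCX 0.40, TUBB3 0.47, NES 0.38), and its sum went from 40.4 to 53.8. POU3F2 and SOX1, also neural, stood well above background on the substate 2 array alone and were at least 13.3-fold and 1.71-fold higher there. The SOX1 probe was dim, with signals of 3.06 in substate 1 and 21.7 in substate 2. Of the fibroblast list COL1A1 (-0.49), COL1A2 (-0.50) and THY1 (-0.11) were measured, with sums of 167 and 152, while COL3A1, DCN, LUM and POSTN were not well above background. The trophoblast and surface ectoderm list was measured through KRT7 alone (0.16; sums of 9.84 and 11.1). The endoderm list had 3 of 5 measured (FOXA2 0.77, AFP 0.46, CXCR4 -0.15), with sums of 1.36 and 1.66.

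**Figure D5:**
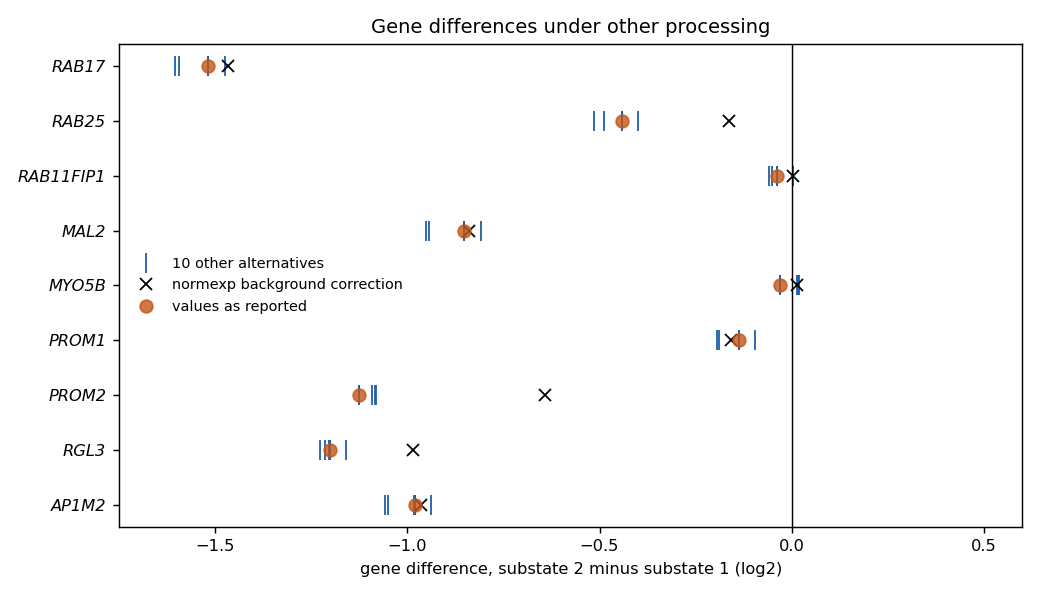
Gene difference, substate 2 minus substate 1 (x axis, log2), of the 9 apical trafficking genes (rows) as reported (circles), under the normexp alternative (median spot brightness, offset of 50; crosses) and under 10 other ways of processing (ticks). RAB17 stays between -1.61 and -1.47, whereas PROM2 moves from -1.13 to -0.64 and RAB25 from -0.44 to -0.16 under normexp.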

How the data were processed

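RNA of substate 1 and of substate 2 was read on 1 single-colour array each (SurePrint G3 Human GE, Cy3). The authors deposited the scanner output, which gives the intensity of every spot after background subtraction by Feature Extraction 11.5.1.1 (protocol GE1_1105_Oct12, per the file headers). The authors also deposited log2 values scaled to the 75th percentile of each array, and these differed from the log2 values computed here by a constant per array for 100% of probes within 0.01.

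Each array had 60901 non-control spots, of which 57.4% (substate 1) and 54.7% (substate 2) were well above background, and the 75th percentile of the signal was 313.7 and 275.4. Signals were floored at 1, outlier spots left out, spots of a probe averaged on the log2 scale and the 75th percentile subtracted. A gene difference is the mean over probes well above background and unsaturated on both arrays. Where a probe passed that flag on a single array, the fold is a bound: its bright value over the dim array's lowest passing signal, or over its own dim value if larger. RefSeq accessions named 31104 of 58201 probes (GRCh38.p14).

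The 9 genes and all lists were chosen with earlier results of these data known. The named genes are the 9, their paralogues, the 3 lowest and 3 highest of the related genes with any past 2-fold, up to 3 measured genes per marker list and the 5 genes nearest to RAB17. Genes named outside this rule, RAB12, RAB33A, MLPH, CLTC, KRT8, KRT18, KRT19, CLDN6, FN1, POU3F2, SOX1 and those not measured, were named after their values were seen. The number of arrays limits the precision, and no p-value was computed. Differences were computed with Python 3.11.15 and normexp with limma 3.58.1 in R 4.3.3, and the code was tested on simulated data. In all, 11 alternatives were run.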

Additional observations from a re-analysis of the deposited data

How the results depend on the processing

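No paired analysis was possible because there was a single array of each substate. RAB17, RAB25, MAL2, AP1M2, PROM1, PROM2 and RGL3 kept differences below 0, and all 9 genes stayed below the median gene, under the 11 alternatives run. RAB11FIP1 and MYO5B did not keep their sign: 7 of 9 genes were below 0 under centring on the median and under normexp, 8 under quantile normalisation and loess, and 9 under the other 7. The median of the 9 genes was -0.94 under quantile normalisation, -0.95 under loess and -0.64 under normexp, which here used the median spot brightness with an offset of 50 and was chosen after seeing the data in place of the planned form. Under normexp 3 of 15 probes were at least 2-fold lower, in place of 6. A Z-score of -2 or less was reached by 9 probes under normexp, with probes well above background on both arrays, and with an SD estimated by the median absolute deviation, in place of 3. The limit moved for every probe, and 3.5%, 3.04% and 12.1% of the probes tested were past it in these cases, against 3.3% as reported. The 15 probes include those of RAB17, RGL3 and PROM2, chosen for being lower, so nothing is read from these counts. The median over the 8 families of the gap to the paralogues was -0.74 as reported, -0.82 under loess, -0.64 under normexp and -0.93 with no filter on dim probes. In the prominin family this gap is PROM1 minus PROM2, both among the 9 genes. RAB17, RGL3 and PROM2 were chosen for being lower, so nothing is read from this median. Without the filter on dim probes 1 gene of the related lists was at least 2-fold lower and 2 were higher. The causes were not tested.

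Over all probes, 514 were at least 2-fold higher and 553 lower, or 48.2% higher. The counts were 89 and 63 (58.6%) under normexp, 254 and 378 with probes well above background on both arrays, and 3109 and 2890 with no filter. The median gene moved between 0.03 and 0.13. Naming of probes by a gene name column was not run. A dim signal limited MYO5B, whose first probe lay closest to the background at 23.2 and 24.7. It also limited PROM2, whose first probe read 41.5 in substate 2, below the second MYO5B probe at 47.5.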
